A study of Mus musculus with 7 samples.

Results

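Foxl1, F3, Sox6, Enho, Vstm2a and Ednrb are 6 genes used as markers of Pdgfra-high telocytes, chosen by name and leaving aside the BMP and WNT ligands of these cells. All 6 (written FOXL1, F3, SOX6, ENHO, VSTM2A and EDNRB in the table) were found among the 24908 gene symbols of an RNA sequencing table made from the opposite gate, Pdgfra-low CD81+ cells of the mouse intestinal mesenchyme. The table has 7 libraries. The 3 controls are labelled wildtype, with no further genotype given, and the knockout mice carried Apcflox/flox with the Villin-CreERT2 driver and were sampled 4 days (2 libraries) or 6 days (2 libraries) after Apc was inactivated. Villin drives the recombinase in epithelium, so the sorted stromal cells themselves are not the targeted cells. The column headings also mark the cells as GFP low, a reporter the labels do not describe, and give neither age nor sex. The question is how these stromal cells differ while WNT signalling transforms the epithelium above them.

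Telocytes are flat, long-armed fibroblasts pressed against the base of the epithelium, densest at the crypt mouth and along the villus. They are known for high Pdgfra and for secreting BMP and non-canonical WNT ligands, which favour differentiation of epithelial cells leaving the crypt. Pdgfra-low CD81+ cells, called trophocytes, lie deeper, beneath the crypts, and supply Grem1, a BMP antagonist, and R-spondins, which maintain stem cells. The markers have unlike roles: Foxl1 is a forkhead transcription factor induced by Hedgehog signals, Sox6 a transcription factor of the SOXD group, F3 (tissue factor) the membrane receptor that starts blood coagulation, Ednrb a G protein coupled receptor for endothelins, Enho the precursor of the secreted peptide adropin, and Vstm2a a secreted protein with an immunoglobulin domain.

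Promoter windows are shown for F3 and Vstm2a because they stand at the 2 ends of the level order described next. They are the 250 bases before the RefSeq start in GRCm38.p6, both on the plus strand, taken by symbol and not by any position in the data. RefSeq windows were matched for 4 of the 6 members, and Foxl1 and Enho had no entry. Capitals mark matches, on either strand, to the GC box, spelled GGGCGG, and to the AP-1 motif, spelled TGANTCA, whose letters read the same on both strands. The search also covered the TATA box, spelled TATAAA, a forkhead motif, spelled TGTTTAC, and a GLI motif, spelled GACCACCCA. The matches in these windows did not overlap.
F3, chr3:121723287-121723536: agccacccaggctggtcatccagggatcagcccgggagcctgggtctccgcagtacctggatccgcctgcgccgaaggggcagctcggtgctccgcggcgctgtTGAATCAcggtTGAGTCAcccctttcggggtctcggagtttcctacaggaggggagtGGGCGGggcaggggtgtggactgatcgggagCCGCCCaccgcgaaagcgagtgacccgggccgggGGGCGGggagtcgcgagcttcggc
Vstm2a, chr11:16257492-16257741: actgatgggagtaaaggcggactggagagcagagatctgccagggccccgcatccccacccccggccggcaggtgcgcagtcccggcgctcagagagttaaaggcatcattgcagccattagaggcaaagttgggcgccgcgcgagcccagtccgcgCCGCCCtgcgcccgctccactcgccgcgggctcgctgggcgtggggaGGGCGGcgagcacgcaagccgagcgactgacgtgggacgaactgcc
The F3 window held 2 AP-1 matches, at 146 to 140 and 135 to 129 bases before the start, and 3 GC boxes. Of 32851 RefSeq windows of the same length, 6.75% held the AP-1 letters at all and 0.338% held them at 2 or more positions, and 8.47% held 3 or more GC boxes. The Vstm2a window held 2 GC boxes, and 2 or more stood in 16.7% of windows. It held no AP-1 letters. The Ednrb window held none of the 5 motifs. Background shares were 12.4% for TATAAA, 32.7% for a GC box, 3.17% for the forkhead letters and 0.225% for the GLI letters. A match is a string of letters in this window and was not tested as a binding site.

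The markers did not share a level in these cells. On the FPKM scale, which is per length and so allows genes to be set side by side, F3 was an abundant transcript, Ednrb and Enho were moderate, Foxl1 lay near 1 FPKM, and Sox6 and Vstm2a were at or close to 0 in every library. Means over the 7 libraries were 57.9 FPKM for F3, 6.41 for Ednrb, 5.22 for Enho, 1.02 for Foxl1, 0.0182 for Sox6 and 0.00694 for Vstm2a. The mean of F3 exceeded that of 91.4% of the 11735 tested genes, while Ednrb stood above 42.9%, Enho above 37.3% and Foxl1 above 4.08%. Each library held F3 far above the others, and F3 made up 69.6% to 92.4% of the summed FPKM of the 6 genes. Ednrb and Enho overlapped over the 7 libraries, and so did Sox6 and Vstm2a.

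**Figure D1:**
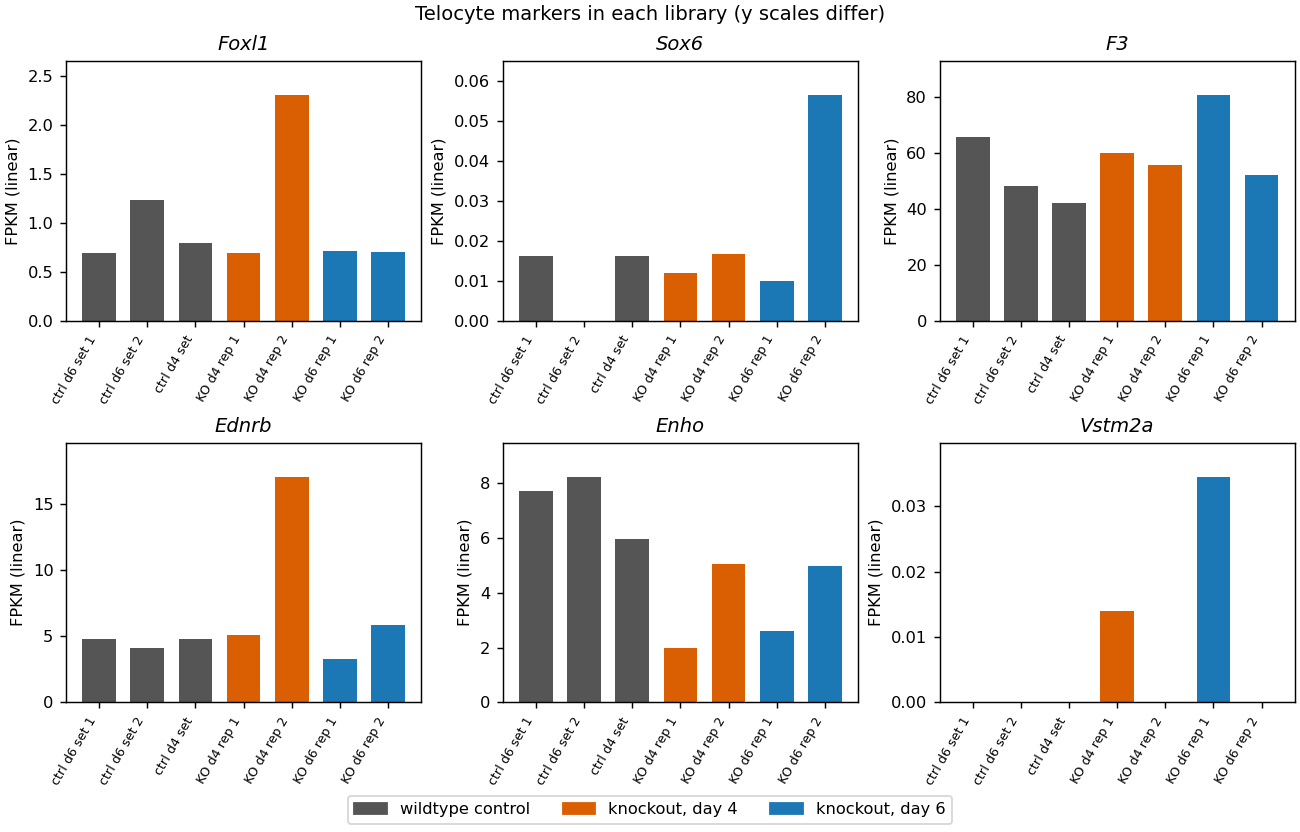
FPKM of each telocyte marker (one panel per gene, linear axes that start at 0 and differ in scale) in 3 wildtype controls, 2 knockout libraries of day 4 and 2 of day 6. Foxl1 and Ednrb peak in day 4 knockout replicate 2 at 2.30 and 17.0 FPKM, Enho is lower in all 4 knockout libraries than in all controls, and the Sox6 and Vstm2a panels end below 0.1 FPKM.

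Control libraries are named here by the day in their column headings: 2 belong to a day 6 set and 1 to a day 4 set, and each day's knockouts to the set of that day. The headings do not say what this day means for a control, and the sample labels give controls no day. The sets, called harvest sets below, are therefore an assumed grouping. Values are given in the order first and second day 6 set control, then day 4 set control, and replicate 1 before replicate 2 for each pair of knockouts. One knockout heading carries no day and was taken as day 6 replicate 2, which is an assumption. Nothing says whether libraries came from separate mice, so every p-value measures the spread between these libraries, which may be technical. In sorted bulk RNA, fewer cells of a type and less RNA per cell cannot be told apart.

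The 2 transcription factors were scarce. Foxl1 read 0.690, 1.23 and 0.790 FPKM across the controls, 0.695 and 2.30 across the day 4 pair, and 0.710 and 0.698 across the day 6 pair. It reached 1 FPKM in 2 libraries, the second day 6 set control and day 4 knockout replicate 2, so it passed the expression filter (1 FPKM in 2 libraries) by the smallest margin. Replicate 1 of day 4 lay inside the range of the controls, close to its lowest value, and replicate 2 lay above it. Controls averaged 0.905 ± 0.290 FPKM (SD, n = 3), the day 4 pair 1.50 ± 1.14 and the day 6 pair 0.704 ± 0.00823.

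Sox6 read 0.0162 FPKM in 2 controls and was listed at 0 in the second day 6 set control. Its knockout levels, 0.0121 and 0.0167 FPKM for the day 4 pair and 0.00996 and 0.0566 for the day 6 pair, overlapped those of the controls. Other SOX factors show what the same libraries held: of 6 SOXD and SOXE genes, 4 were tested, and the glial factor Sox10 stayed below 1 FPKM like Sox6. Sox13, a SOXD relative of Sox6, averaged 13.1 ± 1.53 FPKM across controls (SD, n = 3), 15.2 ± 3.07 for the day 4 pair and 17.3 ± 0.219 for the day 6 pair. Both day 6 libraries lay above all controls for Sox13, as in 13.9% of tested genes. Sox5, also of the SOXD group, read 2.31, 2.47 and 2.31 FPKM across the controls. It read 3.56 and 2.96 across the day 4 pair and 2.55 and 3.33 across the day 6 pair. All 4 lay above all controls, as in 5.32% of tested genes. Sox8, of the SOXE group, averaged 2.46 ± 0.720 FPKM across controls, 1.26 ± 0.454 for the day 4 pair and 2.08 ± 0.107 for the day 6 pair. With both days averaged the limma adjusted p was 0.440 for Sox13, 0.473 for Sox5 and 0.473 for Sox8.

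Of the secreted proteins, Vstm2a was listed at 0 in all 3 controls, in day 4 knockout replicate 2 and in day 6 knockout replicate 2. Replicate 1 of day 4 held 0.0141 FPKM and that of day 6 held 0.0345, and no fold is given against controls at 0. Its relatives Vstm2b and Vstm2l also stayed below 1 FPKM in every library. Sox6 and Vstm2a did not pass the filter, so 4 of the 6 markers were tested. With no filter, Sox6 was at 0.02 ± 0.02 (log2 change ± SE, limma adjusted p = 0.791) and Vstm2a at 0.02 ± 0.02 (adjusted p = 0.766) with both days averaged.

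Enho was lower in every knockout library than in any control. It read 7.73, 8.24 and 5.95 FPKM across the controls, 2.00 and 5.06 across the day 4 pair and 2.59 and 4.97 across the day 6 pair. The highest knockout value, 5.06, lay just under the lowest control value, 5.95, and the groups did not overlap. Of all tested genes 6.58% had all 4 knockout libraries below all controls, 22% had the day 4 pair there and 11.9% the day 6 pair. Replicate 1 of each day was the lower one. These 2 libraries also held the highest summed macrophage and dendritic cell markers, at 195 and 194 FPKM against 78.1 to 119 FPKM in controls, and the highest epithelial markers, at 7.72 and 22.0 FPKM against 1.82 to 3.30. Their part in the Enho values was not tested.

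By limma on log2(FPKM + 1) over 11735 genes, the log2 change of Enho (± SE) was -0.95 ± 0.34 at day 4 (adjusted p = 0.204), -0.83 ± 0.34 at day 6 (adjusted p = 0.677) and -0.89 ± 0.29 with both days averaged (adjusted p = 0.224). The same 3 controls stand in all of these. The 95% interval of the averaged change ran from -1.55 to -0.23 before adjustment over genes. Against controls of the same harvest set it was -0.70 at day 4 (adjusted p = 0.829) and -0.96 at day 6 (adjusted p = 0.587). The lower level in 4 of 4 knockout libraries thus did not pass the correction over all genes. The difference from day 4 to day 6 was 0.12 ± 0.37 (adjusted p = 0.942, 95% interval -0.75 to 0.98).

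Ednrb stood out in 1 library. It read 4.80, 4.08 and 4.75 FPKM across the controls, 5.05 and 17.0 across the day 4 pair, and 3.30 and 5.87 across the day 6 pair. Both day 4 libraries lay above all controls, replicate 1 by little, and the day 6 libraries lay on either side of them. The log2 change was 0.92 ± 0.43 (SE) at day 4 (limma adjusted p = 0.299, 95% interval -0.07 to 1.90) and -0.03 ± 0.43 at day 6 (adjusted p = 0.996). Of all tested genes 12.5% had both day 4 libraries above all controls. Without day 4 knockout replicate 2 the day 4 change of Ednrb was 0.13 (adjusted p = 0.863), and without replicate 1 it was 1.70 (adjusted p = 0.0555). In such fits 1 library stands for day 4 and is assumed to vary like the other groups. Within the day 4 set it was 0.86 (adjusted p = 0.846). Day 6 against day 4 gave -0.94 ± 0.47 (adjusted p = 0.492).

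F3 was abundant in both genotypes. It read 65.8, 48.2 and 42.0 FPKM across the controls, 60.2 and 55.9 across the day 4 pair and 80.9 and 52.3 across the day 6 pair. Both day 4 libraries lay inside the range of the controls, and 1 day 6 library lay above it. The log2 change was 0.18 ± 0.25 at day 4 (limma adjusted p = 0.756), 0.34 ± 0.25 at day 6 (adjusted p = 0.842) and 0.26 ± 0.21 with both days averaged (adjusted p = 0.655). The 95% interval of the averaged change, -0.22 to 0.75, includes no change and also a modest rise. Within sets it was 0.46 at day 4 (adjusted p = 0.841) and 0.20 at day 6 (adjusted p = 0.894).

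For Foxl1 the log2 change was 0.32 ± 0.30 at day 4 (limma adjusted p = 0.621), -0.15 ± 0.30 at day 6 (adjusted p = 0.948) and 0.09 ± 0.25 with both days averaged (adjusted p = 0.933, 95% interval -0.50 to 0.68). Because 1 is added to each value, these changes understate those of a gene near 1 FPKM. Within sets it was 0.40 at day 4 (adjusted p = 0.945) and -0.19 at day 6 (adjusted p = 0.931). Day 6 against day 4 was -0.47 ± 0.33 for Foxl1 (adjusted p = 0.655) and 0.16 ± 0.27 for F3 (adjusted p = 0.884).

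In count, 0 of the 4 tested markers passed at an adjusted p under 0.05 in any of the 4 comparisons. Of all 11735 genes 1.02% passed at day 4, 0.0426% at day 6, 0.162% with both days averaged and 0% for day 6 against day 4, so a count of 0 of 4 is near the background. At an unadjusted p under 0.05, 1 of the 4 (Enho) passed in each comparison with wildtype, where 18.6% of all genes did at day 4, 7.26% at day 6 and 13.8% with both days averaged. For day 6 against day 4 it was 0 of the 4, against 11.5% of all genes. The median log2 change of the 4 was 0.25 at day 4, -0.09 at day 6 and 0.17 with both days averaged, beside -0.06, -0.01 and -0.03 over all tested genes.

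**Figure D2:**
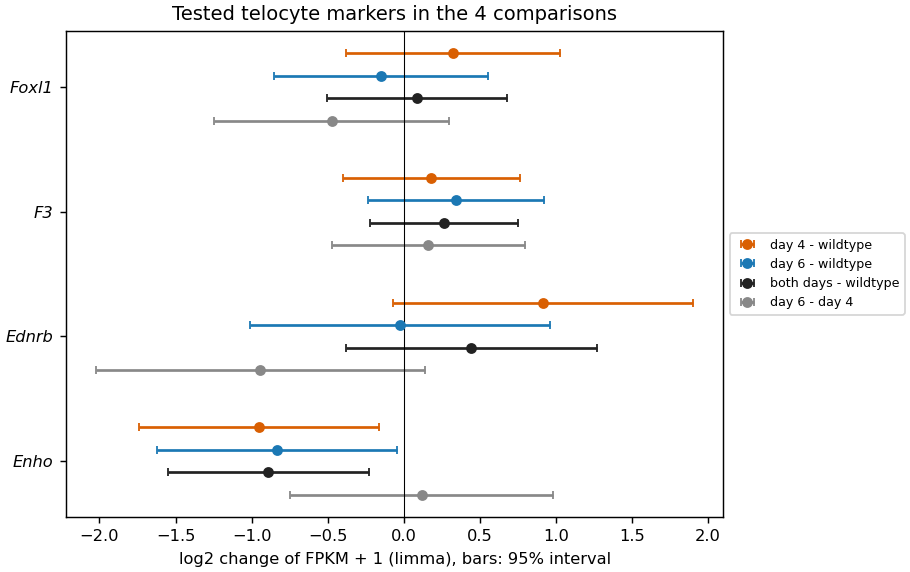
Log2 change of FPKM + 1 (x axis) with its 95% interval from limma for the 4 tested markers in 4 comparisons, with positive values higher in the first-named group. The intervals of F3, Foxl1 and Ednrb include 0 in each comparison, and those of Enho lie below 0 in the 3 comparisons with wildtype, before adjustment over genes.

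The order of Enho and Ednrb differed by genotype. Enho was the higher of the pair in all 3 controls, with means of 7.31 ± 1.20 FPKM (SD, n = 3) for Enho and 4.54 ± 0.400 for Ednrb. Ednrb was the higher in all 4 knockout libraries. Enho averaged 3.53 ± 2.16 FPKM for the day 4 pair and 3.78 ± 1.68 for the day 6 pair, and Ednrb 11.0 ± 8.48 and 4.58 ± 1.82. This order was not tested. The sum of all 6 markers was 53.5 to 79.0 FPKM in controls, 68.0 and 80.3 FPKM at day 4 and 63.9 and 87.5 FPKM at day 6. Without F3 the sum was 11.5 to 13.6 FPKM in controls, 7.77 FPKM in day 4 knockout replicate 1, 24.4 FPKM in replicate 2, and 6.64 and 11.6 FPKM in the day 6 knockouts.

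Day 4 knockout replicate 2 set the top of Foxl1 and Ednrb, and other genes known from Pdgfra-high cells peaked there too. Ednrb was 2.90 times and Foxl1 1.87 times the highest of the other 6 libraries. Of tested genes 1.83% reached 1.5 times, a limit chosen after these values were seen. Foxl1 is among the tested genes only because of its value in this library, so that share cannot be set beside it. F3 and Enho each ranked in the middle, at place 4 of 7, in that library. Of 7 tested BMP and WNT ligands of telocytes, 3 were highest there, and of 11 tested other genes of Pdgfra-high cells, 6 were. The library was above all others for 24.9% of tested genes.

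Of the ligands, Bmp7, a BMP family signal, averaged 0.888 ± 0.250 FPKM across controls (SD, n = 3) and read 1.23 and 4.74 FPKM across the day 4 pair and 1.06 and 1.46 across the day 6 pair. Its log2 change was 0.93 ± 0.38 at day 4 (limma adjusted p = 0.244) and 0.60 ± 0.31 with both days averaged (adjusted p = 0.461). Wnt4, a WNT ligand, read 4.39, 5.39 and 2.30 FPKM across the controls, 1.16 and 3.66 across the day 4 pair and 0.787 and 1.71 across the day 6 pair, a log2 change of -0.88 ± 0.34 with both days averaged (adjusted p = 0.309). Bmp2, Bmp4 and Wnt5b were lower in all 4 knockout libraries than in all controls, as were 6.58% of tested genes. The other tested ligands overlapped the controls. With both days averaged the log2 change was -0.53 ± 0.20 for Bmp2 (limma adjusted p = 0.294), -0.39 ± 0.15 for Bmp4 (adjusted p = 0.309) and -0.33 ± 0.17 for Wnt5b (adjusted p = 0.439). Over the 7 tested ligands 0 passed in either direction in any comparison with wildtype, and their median was -0.33 with both days averaged.

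Frzb, a secreted WNT antagonist, was higher in all 4 knockout libraries than in all controls, as were 5.32% of tested genes. It read 15.8, 22.1 and 28.2 FPKM across the controls, 48.5 and 117 across the day 4 pair and 35.2 and 64.3 across the day 6 pair, a log2 change of 1.77 ± 0.42 at day 4 (limma adjusted p = 0.0984) and 1.44 ± 0.35 with both days averaged (adjusted p = 0.142). Pcsk6, a protease that activates TGF-beta family precursors, averaged 29.9 ± 7.83 FPKM across controls (SD, n = 3), 7.97 ± 3.03 for the day 4 pair and 17.8 ± 6.76 for the day 6 pair. Its change was -1.79 ± 0.33 at day 4 (adjusted p = 0.0528) and -1.26 ± 0.28 with both days averaged (adjusted p = 0.119). With a replicate block both passed at day 4 (adjusted p = 0.0476 for Frzb and 0.0436 for Pcsk6). Without the block 0 of the 11 tested genes of this list passed in any comparison with wildtype, 6 were positive with both days averaged, and the median was 0.02.

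Pdgfra itself, the gene behind the gate, read 54.3, 59.9 and 61.3 FPKM across the controls, 76.5 and 134 across the day 4 pair and 111 and 89.2 across the day 6 pair. All 4 knockout libraries lay above all controls, as in 5.32% of tested genes. The change was 0.78 ± 0.25 at day 4 (limma adjusted p = 0.166) and 0.77 ± 0.21 with both days averaged (adjusted p = 0.175). The markers were also set against Pdgfra in the same library. Because Pdgfra was higher in all 4 knockout libraries, a gene of steady FPKM has a lower share there. How many of all genes have such a lower share was not counted. Foxl1 was 1.72% of the Pdgfra FPKM in day 4 knockout replicate 2, inside the 1.27% to 2.06% of the controls, and 0.637% to 0.907% in the other 3 knockout libraries, below them. Ednrb was 12.7% in that replicate against 6.81% to 8.83% in controls, and 2.96% to 6.59% in the other 3, below the controls. The 6.59% was that of day 4 knockout replicate 1, whose Ednrb FPKM itself lay above all controls. F3 was 41.7% in day 4 knockout replicate 2 and 58.6% in day 6 knockout replicate 2, below the 68.5% to 121% of the controls. It lay inside them in day 4 knockout replicate 1 (78.7%) and day 6 knockout replicate 1 (72.6%). Enho was 2.32% to 5.58% in the 4 knockout libraries against 9.70% to 14.2% in controls.

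Trophocyte genes were mostly low in day 4 knockout replicate 2. Cd81, the other sort marker, read 149, 142 and 110 FPKM across the controls, 94.8 and 32.4 across the day 4 pair, and 169 and 105 across the day 6 pair. Its change was -1.24 ± 0.43 at day 4 (limma adjusted p = 0.189). Of the 8 tested trophocyte genes 5 were lowest in replicate 2 and 0 highest, where 14.4% of all tested genes were lowest. By the test 2 of the 8 fell at day 4 and 0 rose, beside 0.622% of all genes that fell and 0.401% that rose, and the list median was -0.90. Cd34, a surface glycoprotein of crypt-base fibroblasts, went from 490 ± 30.6 FPKM (SD, n = 3) to 195 ± 35.8 (n = 2), a log2 change of -1.33 ± 0.21 (adjusted p = 0.0413), and the WNT ligand Wnt2b from 29.1 ± 8.14 to 10.9 ± 0.597 FPKM, a change of -1.31 ± 0.23 (adjusted p = 0.0489). Without day 4 knockout replicate 2 the log2 change was -1.15 for Cd34 (adjusted p = 0.120) and -1.36 for Wnt2b (adjusted p = 0.123), of like size but past no threshold. Grem1 averaged 179 ± 15.5 FPKM across controls and read 143 and 101 FPKM across the day 4 pair and 501 and 267 across the day 6 pair.

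**Figure D3:**
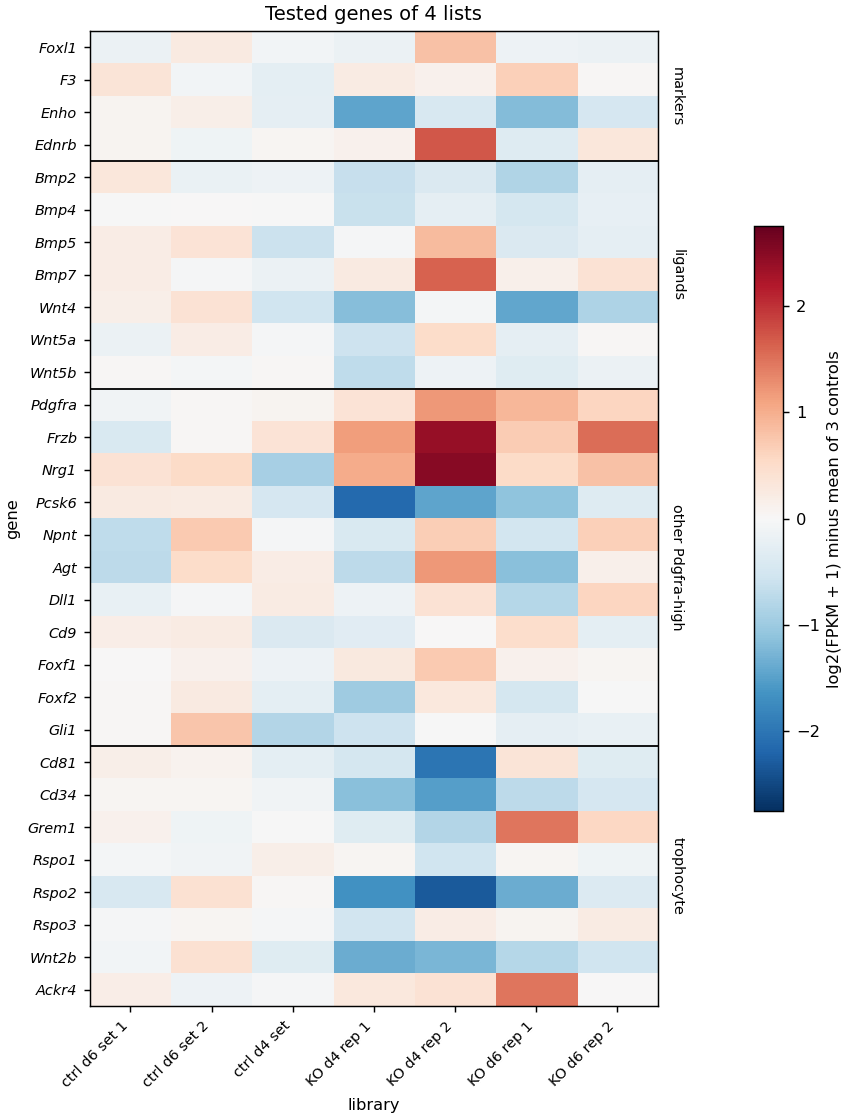
Difference of log2(FPKM + 1) from the mean of the 3 controls (colour scale) for the tested genes of 4 lists (rows) in 7 libraries (columns). Day 4 knockout replicate 2 shows Ednrb, Bmp7, Frzb and Pdgfra above all controls, with Cd81 and Cd34 below them, but members of each of the 3 other lists differ in direction: Bmp2, Bmp4 and Pcsk6 are below all controls there and Ackr4 and Rspo3 above. Enho, Bmp2, Bmp4 and Cd34 are lower, and Frzb and Pdgfra higher, in all 4 knockout columns than in all controls.

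Markers of other cells that can express these genes were measured in the same libraries. Enteric glia, which carry Ednrb, were near absent: all 7 glial markers stayed below 1 FPKM in every library, Sox10 included, with sums of 0.384 to 0.874 FPKM in controls, 0.690 and 1.20 FPKM at day 4 and 0.561 and 0.628 FPKM at day 6. The 4 mesothelial markers stayed below 1 FPKM too. Smooth muscle and myofibroblast markers summed to 56.2 to 149 FPKM in controls, 63.0 FPKM in day 4 knockout replicate 1, 208 FPKM in replicate 2, and 89.0 and 97.0 FPKM at day 6, with 4 of 6 highest in replicate 2. Blood endothelial markers summed to 16.1 to 23.2 FPKM in controls, 28.9 and 34.0 FPKM at day 4, and 25.5 and 25.3 FPKM at day 6, with Cdh5 below 1 FPKM throughout and 4 of 6 tested markers highest in replicate 2. Pericyte markers summed to 200 to 209 FPKM in controls, 117 and 122 FPKM at day 4 and 99.1 and 176 FPKM at day 6. The fall was mainly that of Rgs5, at 139, 135 and 147 FPKM across the controls, 63.7 and 37.8 at day 4 and 28.3 and 106 at day 6. Kcnj8 went the other way, at 0.763, 1.96 and 1.82 FPKM across the controls, 7.84 and 3.39 at day 4 and 5.87 and 7.23 at day 6. Of the 5 tested pericyte markers, 2 were positive at day 4 (median log2 change -0.10) and 3 with both days averaged (median 0.11).

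Immune markers ran the opposite way in day 4 knockout replicate 2. All 7 macrophage and dendritic cell markers, the 3 tested T cell markers and all 5 B and plasma cell markers were lowest there. The macrophage sum was 13.3 FPKM, against 78.1 to 119 FPKM in controls, and the B and plasma cell sum 39.6 FPKM, against 317 to 543 FPKM in controls and 2666 FPKM in day 4 knockout replicate 1. T cell markers summed to 0.564 FPKM there, against 2.32 to 4.25 FPKM in controls. Epithelial markers summed to 1.43 FPKM there. Lymphatic markers, at 59.3 FPKM, lay inside the 43.7 to 72.0 FPKM of the controls, but most of that sum was Pdpn, at 57.6 FPKM. Lyve1, Prox1 and Flt4 read 1.11, 0.175 and 0.439 FPKM there, each above all controls, which was not particular to that library. Lyve1 lay above all controls in all 4 knockout libraries and was highest in day 4 knockout replicate 1 (1.55 FPKM). Prox1 was also above them in both day 6 knockouts (0.178 and 0.203 FPKM). Flt4 was so in day 4 knockout replicate 1 (0.441 FPKM) and day 6 knockout replicate 2 (0.294 FPKM). Markers of interstitial cells of Cajal, at 7.75 FPKM, lay above the 4.55 to 6.68 FPKM of the controls. Most of that sum was Etv1, at 7.34 FPKM, while Kit (0.308 FPKM) and Ano1 (0.106 FPKM) lay inside the range of the controls. The part of these shifts in the values of Foxl1 and Ednrb was not tested.

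**Figure D4:**
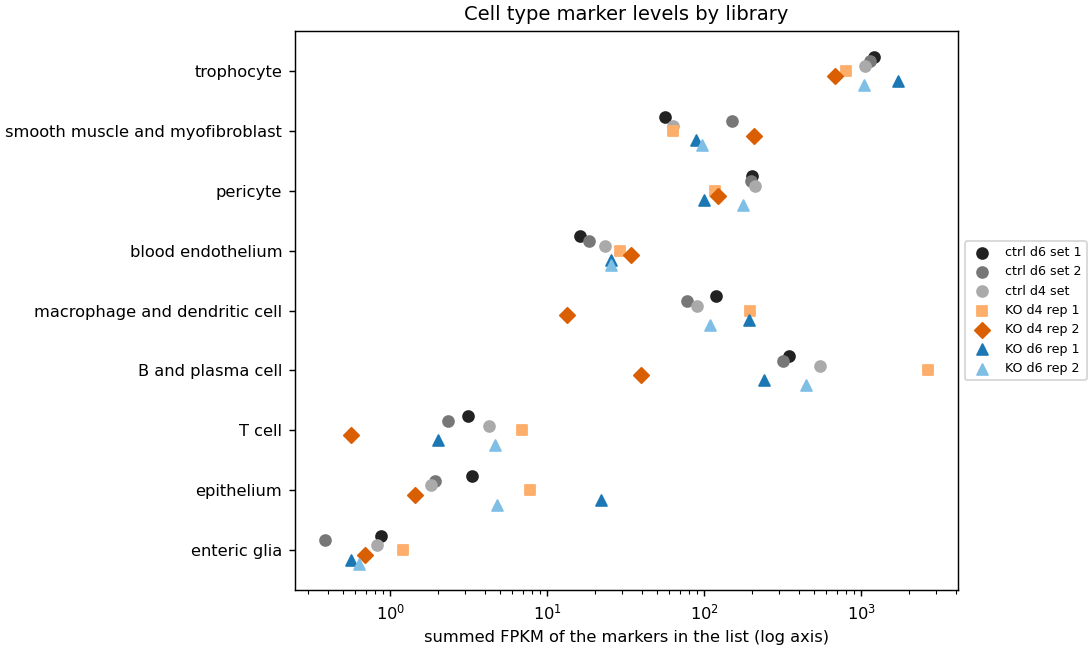
Summed FPKM (log axis) of fixed marker lists for 9 cell types (rows) in the 7 libraries. Day 4 knockout replicate 2 (diamonds) lies below all other libraries for macrophage, B and plasma cell and T cell markers and above them for smooth muscle (208 FPKM) and blood endothelial markers (34.0 FPKM), and glial markers sum to at most 1.20 FPKM.

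The pathways in which the receptors act were also read. For Ednrb, the ligand Edn3 was lower in all 4 knockout libraries than in all controls, as were 6.58% of tested genes. It read 3.35, 3.11 and 2.56 FPKM across the controls, 1.07 and 0.192 across the day 4 pair and 0.383 and 1.79 across the day 6 pair. Its change with both days averaged was -1.18 ± 0.29 (limma adjusted p = 0.149). Of the 8 endothelin genes, 4 were tested and 0 passed in any comparison with wildtype. Edn3 was lowest, and Ednrb highest, in day 4 knockout replicate 2.

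For F3, the list of 12 coagulation genes had 7 tested members and 0 past the threshold in any comparison with wildtype. F2r, a thrombin receptor, was higher in all 4 knockout libraries than in all controls, as were 5.32% of tested genes. It read 70.9, 62.2 and 66.4 FPKM across the controls, 142 and 383 across the day 4 pair and 174 and 96.5 across the day 6 pair. Its log2 change was 1.80 ± 0.41 at day 4 (limma adjusted p = 0.0930) and 1.38 ± 0.34 with both days averaged (adjusted p = 0.152). Thbd, thrombomodulin, which turns thrombin towards anticoagulation, averaged 93.0 ± 18.6 FPKM across controls (SD, n = 3), 41.2 ± 3.44 for the day 4 pair and 90.4 ± 12.5 for the day 6 pair, a log2 change of -1.14 ± 0.20 at day 4 (adjusted p = 0.0511) and -0.58 ± 0.17 with both days averaged (adjusted p = 0.199). The clotting factors F7, F10 and F2 stayed below 1 FPKM in every library.

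For Foxl1, the Hedgehog list had 9 tested genes of 11, with the ligands Shh and Ihh below 1 FPKM in every library. With both days averaged 0 passed, 1 of 9 was positive and the median was -0.26. The log2 change of Smo, the signal transducer, was -0.49 ± 0.18 (limma adjusted p = 0.276). That of Hhip, a target that binds Hedgehog ligands, was -0.30 ± 0.42 (adjusted p = 0.816). Hhip read 2.99, 4.05 and 2.19 FPKM across the controls, 1.21 and 6.11 across the day 4 pair, and 0.947 and 2.69 across the day 6 pair. It was highest in day 4 knockout replicate 2, as were 3 of the 9 tested genes of the list, beside 24.9% of all tested genes, while the targets Gli1 and Ptch1 were highest in the second day 6 set control, at 15.2 and 11.0 FPKM. The 3 are Hhip, Foxf1 and Foxf2. Foxf1 and Foxf2 also stand in the list of other genes of Pdgfra-high cells, so the counts of these lists are not separate.

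Immediate early and handling genes, which rise when tissue is dissociated and whose FOS and JUN products bind AP-1 letters, were abundant throughout. The 10 of them summed to 17167 to 19100 FPKM in controls, 19321 and 17275 FPKM at day 4 and 17764 and 18258 FPKM at day 6, and 0 passed in any comparison with wildtype. Of the 10, 6 were lowest and 0 highest in day 4 knockout replicate 2, where 14.4% of all tested genes were lowest and 24.9% highest. Averaged over both days, Fosb stood at a log2 change of -0.75 ± 0.40 (limma adjusted p = 0.470) and Atf3 at -0.66 ± 0.21 (adjusted p = 0.232). Their part in the level of F3 was not tested.

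Genes with the most similar pattern were looked up among 9014 tested genes of at least 3 FPKM, as a description over 7 libraries that share groups and gates. Such a search returns high values for any gene. For Enho they included the RNA-binding protein Raly (Pearson r = 0.990, Spearman rho = 1) and the chromatin subunit Smarcd3 (r = 0.989, rho = 0.964). Raly was 27.6 to 37.1 FPKM in controls and 12.4 to 24.1 FPKM in the 4 knockout libraries. It ranks the libraries as Enho does (rho = 1), so its groups could not overlap, and this is no separate result. For Ednrb they were Spry4, a feedback inhibitor of receptor tyrosine kinase signalling (r = 0.985), Tmem185b (r = 0.975) and Gatc (r = 0.971). Without day 4 knockout replicate 2 these were 0.851, 0.861 and 0.689.

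For Foxl1 the 3 were the COP9 signalosome subunit Cops3 (r = 0.991), the proteasome ATPase Psmc3 (r = 0.989) and the growth factor receptor Fgfr2 (r = 0.978, or 0.853 without day 4 knockout replicate 2). Fgfr2 was 130 FPKM in that library and 47.2 to 70.0 FPKM in the others. For F3 they were Vmn1r208 (r = 0.974), the disulphide isomerase P4hb (r = 0.964) and Pgm3 (r = 0.958). For the mean of the 6 standardised markers the 10 closest genes were Hnrnpll, Skiv2l, Ergic2, Tapt1, Tubgcp3, Psmd1, Ruvbl1, Tmem209, Ahi1 and Letmd1, from r = 0.977 for Hnrnpll to 0.947 for Letmd1. That mean gives Sox6 and Vstm2a, near 0 FPKM, the same weight as the others.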

How the data were processed

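The authors deposited 1 table of FPKM (fragments scaled by gene length and library size) with 1 column per library. The submitters' processing notes name kallisto 0.46.1, DESeq2 1.40.1 and the mm9 build, with no role given; how FPKM was made is not given in the sources used here. Per the labels' protocols, poly-A RNA was primed with random hexamers. Of 25493 entries, 293 symbols were repeated, of which the highest on average was used; no marker was repeated. Of 24908 symbols, 24411 matched reference names. Columns sum to 351323 to 427369 FPKM. Depth is unknown: the most frequent ratio between libraries of values under 0.2 FPKM was held by 3.18% to 7.29% of genes, so no counting interval or floor is given.

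The test took 11735 genes that reached 1 FPKM in 2 or more libraries. limma 3.58.1 in R 4.3.3 fitted log2(FPKM + 1) with 1 mean per group over the 7 libraries, 4 residual degrees of freedom and a trended prior (3.78 degrees of freedom), two-sided, on the authors' FPKM taken to log2, with Benjamini-Hochberg adjustment over all tested genes. The fit was run on simulated data with independent normal noise and changes larger than those of the markers. That run is no check on changes of the size seen here. Markers and lists were chosen with earlier results of these data known. Named are the 6 markers, Pdgfra, Cd81, Cd34 and Grem1, the genes of each list past the threshold or else its 2 largest changes with both days averaged, and the 3 most similar genes per marker. The similar genes of Sox6 and Vstm2a are not printed, since both lie near 0 FPKM. One similar gene of Enho is not reported here. Bmp2, Bmp4, Wnt5b, Sox5, Foxf1, Foxf2, Ackr4, Rspo3, Gli1, Ptch1, Pdpn, Lyve1, Prox1, Flt4, Etv1, Kit, Ano1, Rgs5 and Kcnj8 fall outside this rule. They were named after their values were seen. Alternatives were a pseudocount of 0.1, no filter, quantile or median-ratio scaling, a constant prior, controls of the same harvest set, a replicate block, summed repeats, isolated zeros set missing and each library left out.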

Additional observations from a re-analysis of the deposited data

Results flagged for a closer look

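Grem1 lay below all controls in both day 4 knockout libraries and above all controls in both day 6 knockout libraries. Taken separately, 22% of tested genes had the day 4 pair below all controls and 13.9% had the day 6 pair above them. The difference between the days, day 6 against day 4, was 1.60 ± 0.32 on the log2 scale, higher at day 6 in 2 of 2 libraries, and did not pass the correction over all genes (limma adjusted p = 0.257). Each day alone against wildtype was -0.57 ± 0.29 (adjusted p = 0.342) and 1.03 ± 0.29 (adjusted p = 0.575). Grem1 was lowest in day 4 knockout replicate 2, the library with the highest Foxl1 and Ednrb. None of the 6 telocyte markers met the same criterion. How many of all tested genes have the days on opposite sides of all controls was not counted, so no background share stands beside Grem1 or the markers.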

How the results depend on the processing

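The count of markers past the threshold was 0 in each of the 4 comparisons under all 16 alternatives. The lowest adjusted p of any marker was 0.0555, for Ednrb at day 4 without day 4 knockout replicate 1. Foxl1 could not be tested without the second day 6 set control or day 4 knockout replicate 2, since it then failed the filter. With both days averaged, Enho ranged from -1.15 to -0.64 and Ednrb from 0.05 to 0.84. Signs changed for small, uncalled changes. With controls of the same harvest set, day 6 against wildtype became 0.000859 for Ednrb, and the cause was not tested. In that setting day 6 against day 4 compares the change of each day from its own set's controls. It was -0.25 for F3 and -0.25 for Enho. This is another quantity than the direct comparison of the days, so its sign is no reversal of that comparison. With single libraries left out, the direct day 6 against day 4 change ranged from -0.15 to 0.47 for F3 and -0.39 to 0.63 for Enho. Day 6 against wildtype ranged from -0.36 to 0.31 for Ednrb, and Hhip with both days averaged from -0.72 to 0.12. The replicate numbers of the knockouts pair no samples by design, and same-numbered deviations at day 4 and day 6 correlated at -0.0275 over genes. With a replicate block 0 markers passed (Enho with both days averaged at -0.89, adjusted p = 0.0980), while over all genes 80 passed at day 4 against 120 without it. Day 6 had 10 with the block against 5. Over all genes the day 4 count was 6 without the first day 6 set control, 2 without the second, 9 without day 4 knockout replicate 2, 68 to 98 without each other knockout library and 472 without the day 4 set control. It was 71 with a constant prior, 5 with controls of the same set and 0 with no filter. Over the alternatives the day 6 count ranged from 0 to 10, the averaged count from 0 to 77 and that of day 6 against day 4 from 0 to 83. The calls of Cd34 and Wnt2b at day 4 had adjusted p from 0.0272 to 0.321 and from 0.0213 to 0.374. Among fits without 1 library, Cd34 was lost without either day 6 set control, day 4 knockout replicate 2 or either day 6 knockout, and Wnt2b without any library other than the day 4 set control. Calls were gained at day 4 for Frzb with the block (0.0476), for Pcsk6 with the block (0.0436), quantile (0.0445) or median-ratio scaling (0.0497) and without the day 4 set control (0.0251), for Thbd with quantile scaling (0.0401), zeros set missing (0.0494) and without the day 4 set control (0.0283), and for F2r without day 4 knockout replicate 1 (0.0327, and 0.0498 with both days averaged). Depth is unknown, so the values of Sox6 and Vstm2a have no counting interval.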
